A study of Rattus norvegicus with 6 samples.

Results

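Axonal transport motors and their adaptors were examined in dorsal root ganglia (DRG), the ganglia that hold the cell bodies of sensory neurons. The set was a list of 52 gene symbols covering kinesin motors and light chains, cytoplasmic dynein, dynactin, dynein adaptors and regulators, mitochondrial transport proteins, scaffolds of the Jun N-terminal kinase pathway and unconventional myosins. Of these, 38 had a transcript cluster, the array's summary over the exons of a gene, that the platform annotation assigned to a single symbol, out of 13215 genes measured in this way among 19418 clusters. Kif1b, Kif26b and Dctn3 shared a cluster with other symbols and were left out. Another 11 genes (Kif1a, Kif2a, Kif5b, Kif5c, Kif16b, Kif17, Kif21b, Klc1, Dynll1, Hook3 and Rhot1) were not matched to a cluster and were not analysed here.

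L5 DRG of male Wistar rats 7 days after transection of the L5 spinal nerve (SNT), a model of neuropathic pain, were set against L5 DRG of naive male Wistar rats. There were 3 SNT and 3 naive replicates, each a pool of 4 animals on 1 Affymetrix Rat Exon array, for 12 animals per group. The control rats had no sham operation, so effects of surgery and of the nerve cut cannot be told apart. Values are log2 expression after robust multi-array average (RMA), and log2 fold changes are SNT minus naive ± standard error.

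A sensory neuron makes nearly all of its proteins in the cell body and ships them along an axon that is far longer than the cell body is wide. Kinesins mostly carry cargo outward, towards the plus ends of axonal microtubules, whereas cytoplasmic dynein, together with its activator dynactin, carries cargo back to the cell body. The returning cargo includes neurotrophin-containing endosomes and, after nerve injury, signals that report the lesion. Adaptors and scaffolds join motors to mitochondria, vesicles and signalling proteins and set whether the motor runs.

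The 6 arrays separated by group at the injury factor Atf3, a transcription factor induced by axotomy, which stood at 11.36, 11.52 and 11.63 on the SNT arrays, against 7.74, 7.69 and 7.74 on the naive arrays (log2 fold change 3.78 ± 0.091, adjusted p = 3.75e-05). Array medians lay between 6.18 and 6.31 for SNT and between 6.11 and 6.16 for naive. Naive arrays correlated at r = 0.994 to 0.996 across clusters, whereas SNT replicate 1 reached r = 0.982 with either of the other SNT arrays, which reached r = 0.99 with each other. Over all 19418 clusters, 32.1% passed a false discovery rate (FDR) of 0.1 in the limma fit, 17.3% higher and 14.8% lower in SNT, and the median log2 fold change was 0.087. Centring each array on its median moved that median to -0.00027, so changes smaller than this shift have no settled direction.

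Of the 38 measured transport genes, 22 (57.9%) passed FDR 0.1, and 19 of these (50.0%) were lower and 3 (7.89%) higher in SNT. Among all 13215 genes, 38.2% passed, 18.3% lower and 19.9% higher. The median log2 fold change of the transport genes was -0.26, against 0.073 over all genes. Only Dync1i1 passed FDR 0.1 with a change of at least 2-fold, against 4.34% of all clusters and 5.51% of all genes, and the other 18 genes that fell had log2 fold changes of -0.86 to -0.27. In 29 of 38 genes (76.3%) the SNT values did not overlap with the naive values (24 below and 5 above), which held for 44.5% of all clusters (18.5% below, 26.0% above) and 51.6% of all genes (23.0% below, 28.6% above).

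Transport genes had high array values, and their calls were therefore also set beside those of the 993 genes at or above the median level of the set. Of these 993 genes 59.6% passed, 40.8% lower and 18.8% higher in SNT, with a median log2 fold change of -0.15, and 8.26% passed with at least a 2-fold change. Their groups did not overlap in 71.8% (49.1% below, 22.7% above). The share of transport genes called, 57.9%, also covers 19 genes below that level, of which 8 passed (6 lower and 2 higher). It is therefore not a like comparison with 59.6%. Of the 19 transport genes at or above that level, 14 (73.7%) passed, 13 lower (68.4%) and 1 higher, with a median of -0.41. The difference between 73.7% and 59.6% was not tested.

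**Figure D1:**
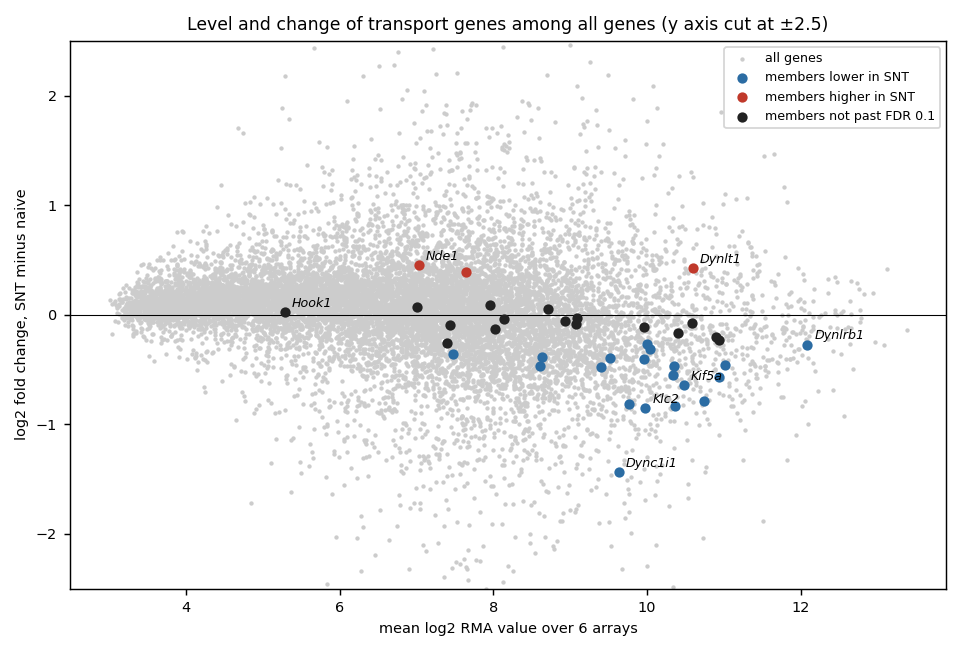
Log2 fold change (SNT minus naive, y axis) against mean log2 value over 6 arrays (x axis) for 13215 genes in grey and the 38 transport genes in colour, with blue for lower, red for higher and black for not past FDR 0.1. The y axis stops at 2.5 in either direction, which leaves out 51 genes. Most transport genes lie at the right of the cloud and below 0.

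**Figure D2:**
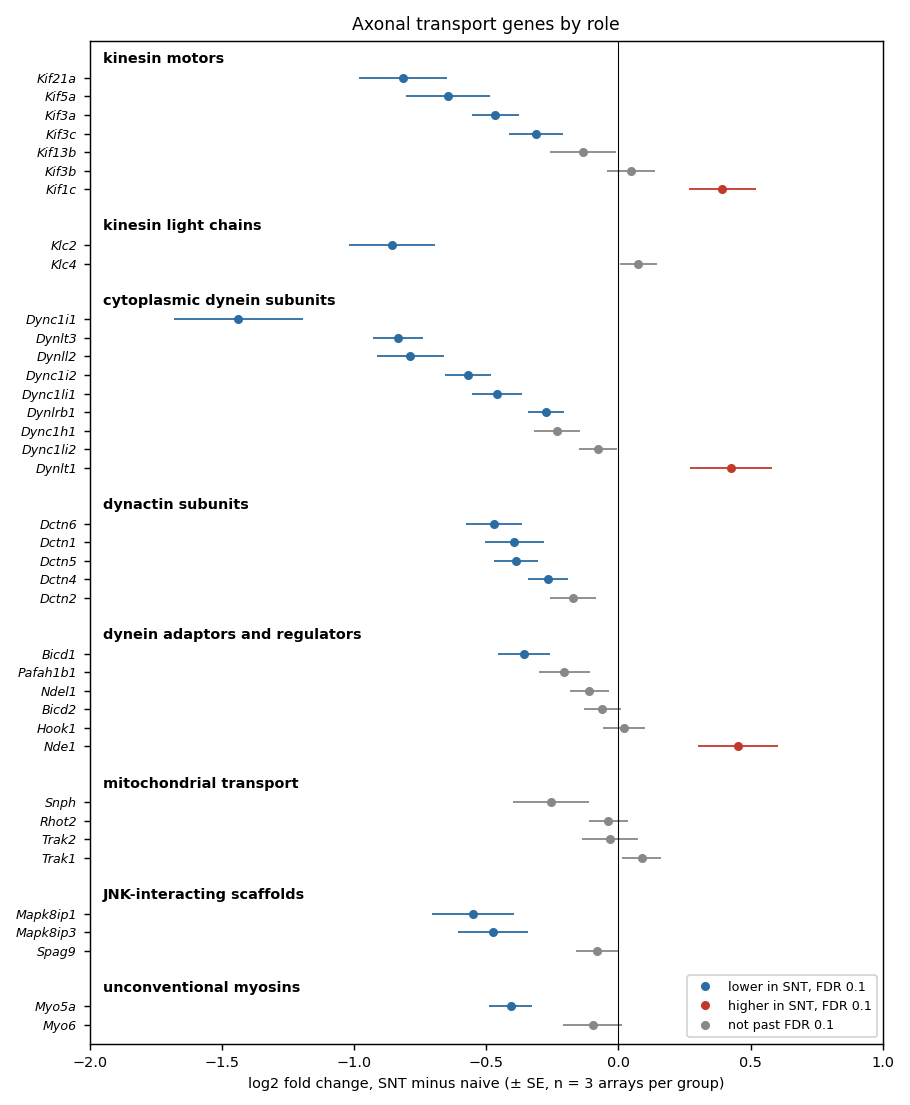
Log2 fold change (SNT minus naive) of each of the 38 transport genes by role, with bars for the standard error (n = 3 arrays per group). Blue marks genes lower and red genes higher in SNT at FDR 0.1. The dynein, dynactin and kinesin groups lie mainly left of 0, and the mitochondrial transport group lies close to 0.

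Of the 22 calls, 17 were subunits of the motors themselves, which made up 23 of the 38 measured genes. Across kinesins, kinesin light chains, dynein and dynactin, 17 of 23 genes passed, 15 lower and 2 higher (median -0.39). Among adaptors, scaffolds, mitochondrial proteins and myosins, 5 of 15 passed, 4 lower and 1 higher (median -0.098). The motor genes also had a higher median level than the others (10.04, against 8.93). Calls were more frequent among the 993 genes with high array values than among all genes (59.6%, against 38.2%). The difference between the shares of the 2 groups of transport genes was not tested, and role and level cannot be told apart in it.

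Kinesin motors were lower in 4 of 7 measured genes and higher in 1 (median -0.31), while 18.3% of all genes were lower and 19.9% higher. Kif21a, a neuronal kinesin known in humans for an inherited disorder of eye movement, stood at 9.73, 9.07 and 9.26 on the SNT arrays, against 10.19, 10.18 and 10.13 on the naive arrays. All SNT arrays lay below all naive arrays, most on replicate 2 and least on replicate 1 (log2 fold change -0.81 ± 0.17, adjusted p = 0.0165). Kif5a, the neuron-specific heavy chain of conventional kinesin, which carries neurofilaments and many vesicles, stood at 10.48, 9.86 and 10.13 on the SNT arrays, against 10.82, 10.89 and 10.70 on the naive arrays. It reached 64.0% of the naive level (-0.64 ± 0.16, adjusted p = 0.0291), and on leaving out naive replicate 2 its adjusted p was 0.103.

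The heterotrimeric kinesin that carries vesicles in axons and builds cilia is made of Kif3a with either Kif3b or Kif3c. Kif3a stood at 8.41, 8.25 and 8.48 on the SNT arrays, against 8.90, 8.81 and 8.83 on the naive arrays, a difference larger than the spread within either group (-0.47 ± 0.087, adjusted p = 0.013). Its partner Kif3c stood at 10.02, 9.71 and 9.92 on the SNT arrays, against 10.22, 10.23 and 10.12 on the naive arrays (-0.31 ± 0.10, adjusted p = 0.0682). The partner Kif3b did not pass the test and its groups overlapped, with 8.79, 8.58 and 8.82 on the SNT arrays, against 8.69, 8.72 and 8.64 on the naive arrays (0.048 ± 0.091, adjusted p = 0.727, 95% confidence interval -0.17 to 0.26). The call of Kif3c was lost without SNT replicate 2 or 3 (adjusted p = 0.134 and 0.106), on leaving out naive replicate 1, 2 or 3 (0.198, 0.191 and 0.123), and after quantile normalisation or cyclic loess of the clusters (0.265 and 0.244).

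Kif1c, a vesicle motor expressed in many cell types, rose. It stood at 7.62, 8.01 and 7.91 on the SNT arrays, against 7.44, 7.31 and 7.60 on the naive arrays (0.39 ± 0.13, adjusted p = 0.0694). SNT replicate 1 lay only just above the highest naive array. The rise was lost after median centring (adjusted p = 0.214), without SNT replicate 2 or 3 (0.163 and 0.146) and on leaving out naive replicate 1 or 2 (0.183 and 0.205). Kif13b, a motor for membrane scaffolds, did not pass (-0.13 ± 0.12, adjusted p = 0.471).

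Kinesin light chains link the heavy chains to cargo. Klc2 stood at 9.89, 9.30 and 9.45 on the SNT arrays, against 10.45, 10.51 and 10.24 on the naive arrays, so that SNT ganglia held 55.2% of the naive level (-0.86 ± 0.16, adjusted p = 0.0137). Klc4 stood at 7.05, 7.00 and 7.07 on the SNT arrays, against 6.98, 6.97 and 6.94 on the naive arrays (0.074 ± 0.07, adjusted p = 0.477). Its SNT arrays all lay above its naive arrays, but the difference was about as large as the shift of all clusters and did not pass the test.

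**Figure D3:**
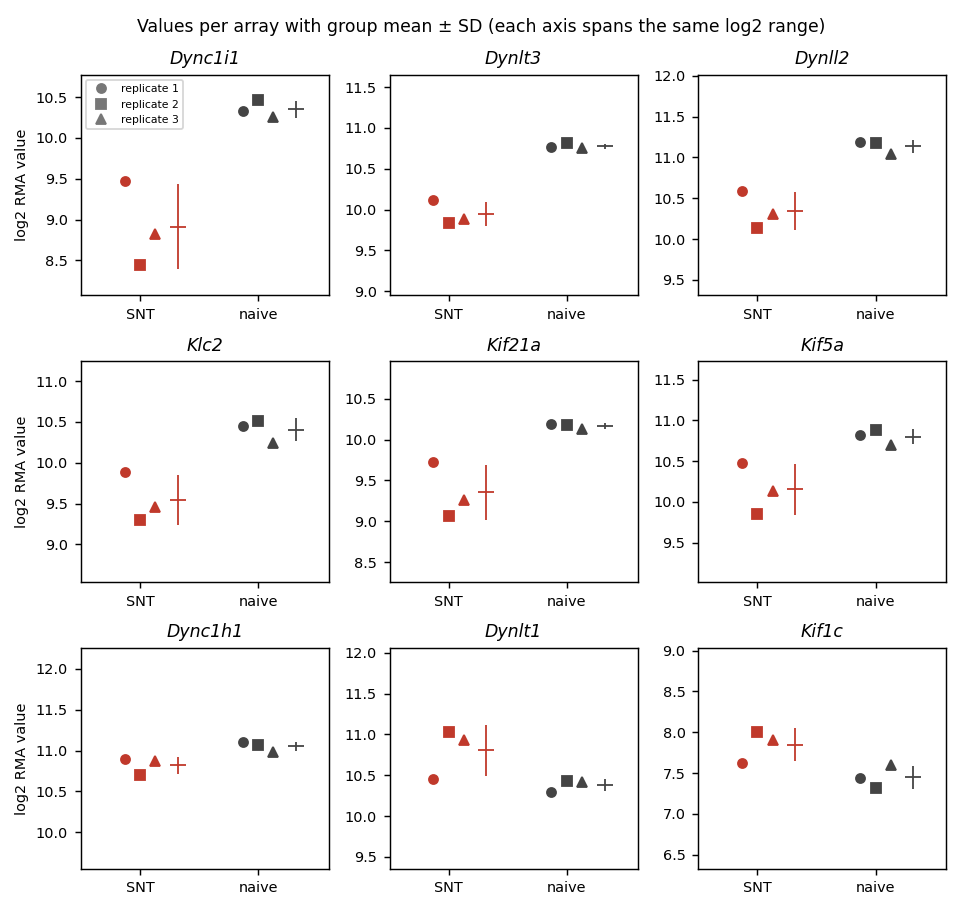
Log2 RMA value of 9 transport genes on each array, SNT on the left and naive on the right of each panel, with marker shape for the replicate and a bar for mean ± SD (n = 3). All axes span the same log2 range. SNT replicate 1 (circle) lies nearest to the naive arrays and SNT replicate 2 (square) farthest from them in each of these genes.

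Cytoplasmic dynein is the retrograde motor, and of its 9 subunits measured 6 were lower and 1 higher (median -0.46). Among all genes 18.3% were lower and 19.9% higher, and among the 993 genes with high array values 40.8% and 18.8%. The largest change of any transport gene was that of Dync1i1, the intermediate chain that is enriched in neurons. Dync1i1 stood at 9.47, 8.44 and 8.83 on the SNT arrays, against 10.33, 10.46 and 10.26 on the naive arrays. The SNT arrays differed widely among themselves (SD 0.52, against 0.10 for naive), yet the highest of them lay below the lowest naive array (-1.44 ± 0.24, adjusted p = 0.0102, 36.9% of the naive level). Dync1i2, the intermediate chain found in most tissues, stood at 10.72, 10.51 and 10.70 on the SNT arrays, against 11.26, 11.20 and 11.19 on the naive arrays, with closely spaced values in both groups (-0.57 ± 0.087, adjusted p = 0.00775). Intermediate chains form the part of the motor that dynactin binds.

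The promoters of both intermediate chain genes are shown together with those of Kif21a, the kinesin motor with the largest fall, and Dynlt1, the dynein subunit that rose, because these genes carry the main contrasts of the set. These genes and the motifs searched were chosen after the expression values were known. Where a gene had several annotated start sites, only the first listed was used, for the sequences shown and for the shares below. Each line gives the 250 bases before the annotated start site, 5′ to 3′ on the strand of the gene, from RefSeq on the GRCr8 assembly (chr4:34819191-34819440, plus strand for Dync1i1; chr3:76441371-76441620, plus strand for Dync1i2; chr7:124058541-124058790, minus strand for Kif21a; chr1:49298918-49299167, minus strand for Dynlt1). Capitals mark matches on either strand to the GC box GGGCGG, the NRF1 motif (GCGCA, any base, GCGC) or the AP-1 motif TGANTCA, which do not overlap one another here.
Dync1i1: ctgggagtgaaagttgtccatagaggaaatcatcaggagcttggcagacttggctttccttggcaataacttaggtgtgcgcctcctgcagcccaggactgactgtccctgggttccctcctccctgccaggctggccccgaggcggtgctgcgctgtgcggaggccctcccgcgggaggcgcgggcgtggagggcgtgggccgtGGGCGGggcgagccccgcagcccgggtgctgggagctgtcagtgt
Dync1i2: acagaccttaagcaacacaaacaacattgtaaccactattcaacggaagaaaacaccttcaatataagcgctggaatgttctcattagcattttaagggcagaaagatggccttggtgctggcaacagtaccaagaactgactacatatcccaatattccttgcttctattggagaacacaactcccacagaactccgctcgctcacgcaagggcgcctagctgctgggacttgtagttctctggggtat
Kif21a: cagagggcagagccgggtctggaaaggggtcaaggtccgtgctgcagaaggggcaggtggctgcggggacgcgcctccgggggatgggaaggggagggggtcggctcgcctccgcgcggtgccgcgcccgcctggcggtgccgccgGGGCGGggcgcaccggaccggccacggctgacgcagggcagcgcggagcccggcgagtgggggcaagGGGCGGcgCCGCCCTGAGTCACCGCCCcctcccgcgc
Dynlt1: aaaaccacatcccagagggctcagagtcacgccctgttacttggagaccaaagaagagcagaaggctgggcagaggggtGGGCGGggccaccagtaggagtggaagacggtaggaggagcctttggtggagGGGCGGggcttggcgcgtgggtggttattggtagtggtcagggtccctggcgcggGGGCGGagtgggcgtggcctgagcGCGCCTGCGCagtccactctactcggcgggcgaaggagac
These windows held 67.6%, 45.6%, 79.6% and 65.6% G and C in that order. Dync1i1 had 1 GC box, Kif21a had 4 and Dynlt1 had 3, and no match to these motifs was found for Dync1i2. Kif21a had 1 AP-1 match between a pair of GC boxes, and Dynlt1 had 1 NRF1 match. Of the 38 transport genes 29 had a promoter in the RefSeq table. The GC box was present in 17 of these (58.6%), against 32.4% of all 27457 promoters. The NRF1 motif was present in 6 (20.7%), against 4.17%, and the AP-1 motif in 2 (6.9%), against 6.36%. The cAMP response element TGACGTCA was found in 0 of 29, against 1.7% of all. The set of all promoters was not matched to the transport genes for array level or for G and C content. Of the 38 transport genes 37 lay above the median level of all clusters. Whether the shares differ from those of like genes was not tested. A match of letters is a description and not a site of binding.

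Light chains of dynein changed in opposite directions. Dynlt3 stood at 10.11, 9.83 and 9.89 on the SNT arrays, against 10.77, 10.81 and 10.75 on the naive arrays (-0.83 ± 0.10, adjusted p = 0.00468), the smallest adjusted p of the set. Dynll2, a small dimeric hub protein that also binds many partners outside the motor, stood at 10.59, 10.14 and 10.31 on the SNT arrays, against 11.19, 11.17 and 11.04 on the naive arrays (-0.79 ± 0.13, adjusted p = 0.00899). Both genes kept wide gaps between the groups. Dynlt1, the relative of Dynlt3 also called Tctex1, stood at 10.45, 11.03 and 10.94 on the SNT arrays, against 10.30, 10.43 and 10.41 on the naive arrays and was higher in SNT (0.43 ± 0.16, adjusted p = 0.0955). SNT replicate 1 lay only just above the naive arrays, and the call was lost after median centring (adjusted p = 0.25), without SNT replicate 2 or 3 (0.217 and 0.201) and on leaving out naive replicate 1, 2 or 3 (0.252, 0.183 and 0.186).

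Dynlrb1, the roadblock light chain, fell by little but with little spread, at 11.95, 11.93 and 11.96 on the SNT arrays, against 12.21, 12.22 and 12.23 on the naive arrays (-0.28 ± 0.068, adjusted p = 0.0295). Its call was lost without naive replicate 1, 2 or 3 (adjusted p = 0.113, 0.109 and 0.109) and after cyclic loess (0.372). The light intermediate chains, which bind the adaptors, were Dync1li1, at 10.90, 10.63 and 10.81 on the SNT arrays, against 11.24, 11.31 and 11.18 on the naive arrays (-0.46 ± 0.10, adjusted p = 0.0175), and Dync1li2, at 10.48, 10.56 and 10.59 on the SNT arrays, against 10.62, 10.63 and 10.61 on the naive arrays (-0.076 ± 0.072, adjusted p = 0.478). The fall of Dync1li1 exceeded the spread of its replicates, whereas Dync1li2 did not pass, although its SNT arrays all lay below its naive arrays. The heavy chain Dync1h1, the motor subunit that moves along microtubules, stood at 10.89, 10.70 and 10.87 on the SNT arrays, against 11.10, 11.07 and 10.98 on the naive arrays. The groups did not overlap, but the difference just missed the threshold (-0.23 ± 0.087, adjusted p = 0.101, 95% confidence interval -0.44 to -0.03), and it passed after median centring (adjusted p = 0.0519), without SNT replicate 1 (0.067), with array weights (0.0639), with a trended robust variance (0.0831), with dim clusters left out (0.0825) and with 1 cluster per gene (0.0716).

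Dynactin activates dynein and holds it on the microtubule. Of its subunits 4 of 5 fell and 0 rose, with a median of -0.39, and all 5 had SNT arrays below the naive arrays. Among all genes 18.3% were called lower and 23.0% had all SNT arrays below the naive arrays. These shares were 40.8% and 49.1% among the 993 genes with high array values, and the difference was not tested. Dctn1, the large subunit that binds microtubules, stood at 9.46, 9.15 and 9.37 on the SNT arrays, against 9.77, 9.80 and 9.58 on the naive arrays (-0.39 ± 0.11, adjusted p = 0.0442). The subunits of the pointed end of the dynactin filament fell as well. Dctn6 stood at 10.25, 9.99 and 10.12 on the SNT arrays, against 10.55, 10.73 and 10.49 on the naive arrays (-0.47 ± 0.10, adjusted p = 0.0215), Dctn5 had a log2 fold change of -0.39 ± 0.082, adjusted p = 0.0186, and Dctn4 of -0.27 ± 0.076, adjusted p = 0.0463. Dctn2, known as dynamitin, did not pass (-0.17 ± 0.087, adjusted p = 0.206). The calls of Dctn1 and Dctn4 disappeared on leaving out naive replicate 1 (adjusted p = 0.151 and 0.16) or 2 (0.145 and 0.15), and after quantile normalisation (0.151 and 0.243) or cyclic loess (0.12 and 0.207). That of Dctn4 was also lost without naive replicate 3 (0.119) or SNT replicate 2 (0.105).

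Of the 6 adaptors and regulators of dynein 1 was lower and 1 higher (median -0.086). Bicd1, which couples dynein and dynactin to vesicles, stood at 7.44, 7.13 and 7.32 on the SNT arrays, against 7.70, 7.65 and 7.62 on the naive arrays (-0.36 ± 0.10, adjusted p = 0.0413). Its relative Bicd2 stood at 8.92, 8.89 and 8.89 on the SNT arrays, against 8.92, 8.99 and 8.97 on the naive arrays, closely spaced values that did not pass (-0.061 ± 0.069, adjusted p = 0.554). The call of Bicd1 was lost without naive replicate 1, 2 or 3 (adjusted p = 0.144, 0.121 and 0.103). Nde1, which binds dynein with Lis1 and is known from dividing cells, stood at 6.91, 7.47 and 7.39 on the SNT arrays, against 6.81, 6.72 and 6.88 on the naive arrays (0.45 ± 0.15, adjusted p = 0.0776). Its neuronal relative Ndel1 stood at 9.88, 9.84 and 9.98 on the SNT arrays, against 10.00, 10.02 and 10.01 on the naive arrays and did not pass (-0.11 ± 0.075, adjusted p = 0.328). The rise of Nde1 was lost after quantile normalisation, median centring and cyclic loess (adjusted p = 0.145, 0.214 and 0.128), without SNT replicate 2 or 3 (0.18 and 0.17) and on leaving out naive replicate 1, 2 or 3 (0.188, 0.205 and 0.141).

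Pafah1b1, the gene of Lis1, did not pass (-0.21 ± 0.10, adjusted p = 0.177), but passed after median centring (adjusted p = 0.0681), with array weights (0.0611) and without SNT replicate 1 (0.0449). The endosome adaptor Hook1 had the lowest value of the set, between 5.25 and 5.39 in SNT and between 5.22 and 5.32 in naive, and showed overlapping groups (0.02 ± 0.08, adjusted p = 0.876).

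No gene of the mitochondrial transport group passed the test (0 of 4 at FDR 0.1 in limma, with 0 at an unadjusted p under 0.05). These were the adaptors Trak1 (0.088 ± 0.074, adjusted p = 0.421) and Trak2 (-0.033 ± 0.11, adjusted p = 0.844), the outer membrane GTPase Rhot2, also called Miro (-0.039 ± 0.073, adjusted p = 0.728), and Snph, which anchors mitochondria in axons (-0.26 ± 0.14, adjusted p = 0.248). The 95% confidence intervals reached from -0.09 to 0.26 for Trak1 and from -0.60 to 0.09 for Snph.

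Scaffolds of the Jun N-terminal kinase pathway bind kinesin light chain and dynactin and join injury signalling to transport. Mapk8ip1, the gene of JIP1, stood at 10.35, 9.73 and 10.09 on the SNT arrays, against 10.65, 10.56 and 10.62 on the naive arrays (-0.55 ± 0.15, adjusted p = 0.0447). Mapk8ip3, the gene of JIP3, stood at 9.42, 8.92 and 9.16 on the SNT arrays, against 9.66, 9.69 and 9.57 on the naive arrays (-0.47 ± 0.13, adjusted p = 0.0434). In both genes SNT replicate 2 was lowest and SNT replicate 1 nearest to the naive arrays. Spag9, the gene of JIP4, did not pass (-0.082 ± 0.081, adjusted p = 0.493). Both calls were lost after quantile normalisation (adjusted p = 0.133 for Mapk8ip1 and 0.132 for Mapk8ip3), cyclic loess (0.111 and 0.108), and on leaving out naive replicate 1 (0.139 and 0.134) or 2 (0.11 and 0.134), and that of Mapk8ip1 also without naive replicate 3 (0.119).

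Myosins carry vesicles over short distances on actin. Myo5a stood at 9.77, 9.68 and 9.82 on the SNT arrays, against 10.21, 10.20 and 10.08 on the naive arrays (-0.41 ± 0.081, adjusted p = 0.0154), with the SNT arrays closely grouped below the naive arrays. Myo6, which walks in the opposite direction to other myosins, stood at 7.18, 7.52 and 7.47 on the SNT arrays, against 7.55, 7.39 and 7.53 on the naive arrays and overlapped between groups (-0.10 ± 0.11, adjusted p = 0.557).

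Related genes were then compared within each array, by the difference of their log2 values, so that a scaling factor of the array cancels. Of 19 planned pairs 9 had both genes measured, and Klc2/Klc4 and Kif3a/Kif3b were added after the values were seen, which made 11 pairs. In 8 of 11 pairs the SNT arrays did not overlap with the naive arrays. Both added pairs were among these 8. Their separation could be seen when they were chosen, so they give no independent support. Lack of overlap was common in these data, since single genes showed it in 51.6% of all genes and 71.8% of genes with high array values, and the share over other pairs of genes was not computed. For those 8 the two-sided exact permutation test gave p = 0.1, the smallest that 3 against 3 arrays allow, and p = 0.138 after Benjamini-Hochberg adjustment over 11 pairs, so the design could not reach a threshold of 0.05.

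The widest split was that of Dynlt1 and Dynlt3, whose difference was 0.34, 1.19 and 1.05 on the SNT arrays, against -0.47, -0.38 and -0.34 on the naive arrays, a shift of 1.26 ± 0.27. The difference of Dync1i1 and Dync1i2 was -1.26, -2.07 and -1.88 on the SNT arrays, against -0.93, -0.74 and -0.93 on the naive arrays (-0.87 ± 0.25), lower on each SNT array than on any naive array. The difference of Klc2 and Klc4 was 2.84, 2.30 and 2.39 on the SNT arrays, against 3.48, 3.54 and 3.31 on the naive arrays (-0.93 ± 0.18). That of Kif3a and Kif3b was -0.37, -0.33 and -0.34 on the SNT arrays, against 0.21, 0.09 and 0.19 on the naive arrays (-0.51 ± 0.038), with the least spread among SNT arrays of these pairs.

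Smaller shifts were found for Nde1 against Ndel1 (0.56 ± 0.18), Dync1li1 against Dync1li2 (-0.38 ± 0.11), Kif3c against Kif3b (-0.36 ± 0.044) and Bicd1 against Bicd2 (-0.30 ± 0.092). The groups overlapped for Myo5a against Myo6 (-0.31 ± 0.14, exact permutation p = 0.2), Mapk8ip1 against Mapk8ip3 (-0.08 ± 0.067, exact permutation p = 0.4) and Trak1 against Trak2 (0.12 ± 0.14, exact permutation p = 0.6).

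**Figure D4:**
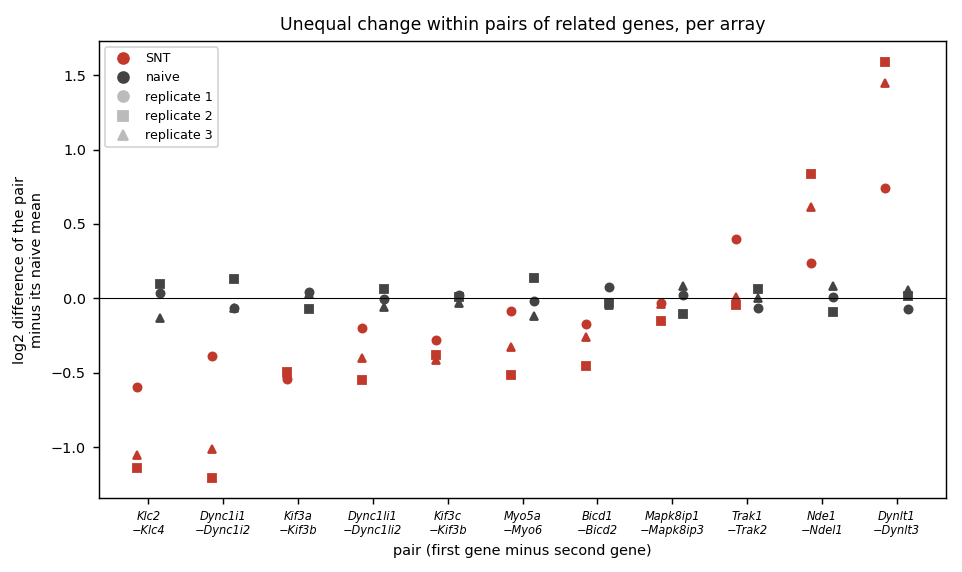
Log2 value of the first gene minus that of the second gene within each array, less the naive mean of that difference (y axis), for 11 pairs of related genes, with SNT in red left of naive in grey and marker shape for the replicate. In 8 pairs the SNT points lie apart from the naive points, farthest for Dynlt1 and Dynlt3.

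Among the 22 called genes the size of the change mostly followed the same array order. Of the 19 genes that fell, SNT replicate 2 lay farthest from the naive mean in 19 and SNT replicate 1 nearest to it in 15, and in the 3 genes that rose the order was the same. Among genes that fell, the median SD was 0.16 between SNT arrays and 0.062 between naive arrays. Without SNT replicate 1 all 22 calls were kept and Dync1h1 and Pafah1b1 joined them.

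Markers of the cell types of the ganglion were examined on the same arrays. Of 14 listed neuronal markers 11 were measured, 8 fell and 0 rose (median -0.69), and their median difference from the naive mean was -0.42, -0.97 and -0.64 on SNT replicates 1 to 3. Their summed level on the linear scale of the array was 28691 to 39465 in SNT and 49217 to 51365 in naive. For the transport genes the median difference was -0.23, -0.35 and -0.22. The sensory neuron factor Isl1 fell, at 8.60, 7.39 and 7.69 on the SNT arrays, against 9.61, 9.58 and 9.36 on the naive arrays (-1.62 ± 0.29, adjusted p = 0.0119). The peripheral neuron filament Prph (-0.23 ± 0.10, adjusted p = 0.153) and the neuronal tubulin Tubb3 (0.036 ± 0.089, adjusted p = 0.792) did not pass the test. On every array each of the 11 neuronal markers lay above the median of all clusters. Among all genes 18.3% were called lower, and among the 993 genes with high array values 40.8%. In bulk tissue fewer neurons and less RNA per neuron cannot be told apart.

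Of the 12 macrophage markers 12 rose (median 2.08), with a summed linear level of 6725 to 13330 in SNT and 1656 to 2202 in naive, and a median difference from naive of 1.40, 2.34 and 2.32 on SNT replicates 1 to 3. For scale, 19.9% of all genes rose and 18.3% fell at FDR 0.1. T and natural killer cell markers rose in 4 of 6 cases, fibroblast markers in 4 of 5 and endothelial and mural markers in 2 of 5. None of these 3 lists held a gene that fell. Of 6 satellite glia markers 2 rose and 2 fell, and of 7 Schwann cell markers 3 rose and 0 fell. The part that these shifts have in the change of the transport genes was not tested.

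**Figure D5:**
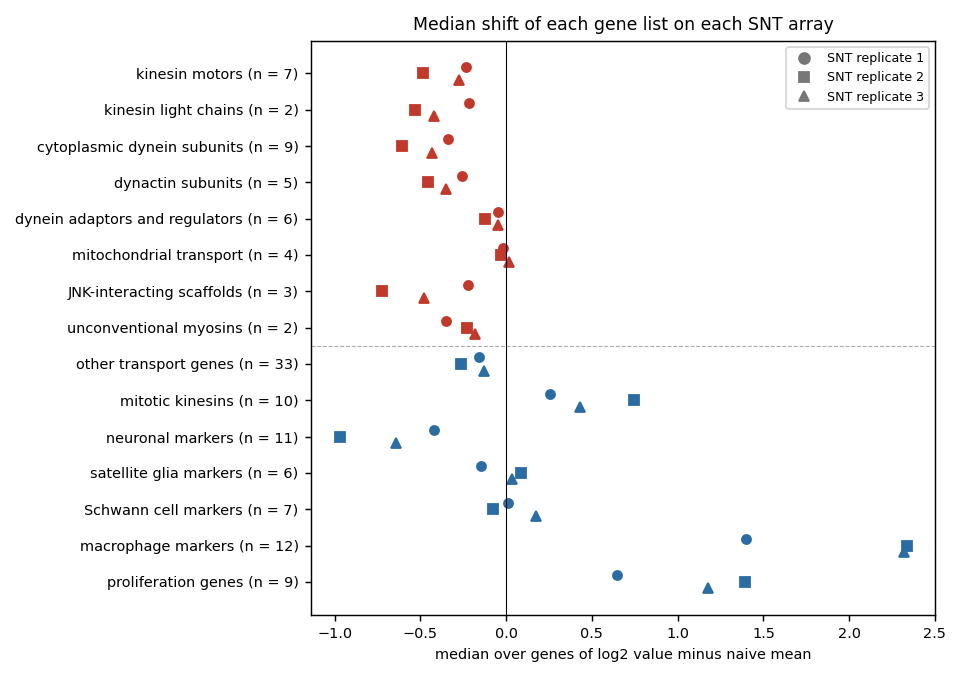
Median over the genes of each list of the log2 value minus the naive mean (x axis), for SNT replicates 1 to 3 by marker shape, with the 8 roles of transport genes in red above the dashed line and other lists in blue below it. Motor groups and neuronal markers lie left of 0 with replicate 2 farthest out, and macrophage markers lie to the right, between 1.40 and 2.34.

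Other genes of the transport machinery came from a separate list of 52 symbols, of which 33 were measured. Of these, 12 (36.4%) fell and 6 (18.2%) rose (median -0.18), against 18.3% and 19.9% of all genes. Actr10, a further protein of the pointed end of dynactin, stood at 9.47, 9.32 and 9.42 on the SNT arrays, against 10.09, 10.11 and 10.16 on the naive arrays (-0.72 ± 0.078, adjusted p = 0.00438). Fez1, an adaptor of conventional kinesin, stood at 9.08, 8.20 and 8.54 on the SNT arrays, against 10.10, 10.12 and 10.10 on the naive arrays (-1.50 ± 0.21, adjusted p = 0.00643), a fall about as large as that of Dync1i1. Madd, which links kinesins to synaptic vesicle precursors, fell (-0.77 ± 0.11, adjusted p = 0.00708). Disc1, a scaffold that binds Ndel1 and mitochondrial adaptors, rose, at 6.60, 6.72 and 6.49 on the SNT arrays, against 5.93, 6.09 and 5.96 on the naive arrays (0.61 ± 0.092, adjusted p = 0.00772).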

How the data were processed

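RNA of L5 DRG was measured on Affymetrix Rat Exon 1.0 ST arrays. The table deposited by the authors holds log2 values of transcript clusters, made from the scanner files with the R package oligo by RMA, that is background correction, quantile normalisation between arrays and median polish. The sources used here do not give the version of oligo or the probeset level of the table. The study found a narrower range of fold changes on the arrays than by sequencing of the same RNA, so large differences may be understated. No background level was set, and the number of arrays, not depth, limits precision. Symbols came from the platform annotation. Of 19418 clusters 13327 had 1 symbol, 620 several and 5471 none, and a match of 13232 to RefSeq (GRCr8) identifiers changed 0 symbols. Of several clusters of a gene (102 genes, 0 of the transport genes) the one with the highest mean was used.

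SNT was compared with naive by lmFit and eBayes (limma 3.58.1, R 4.3.3) as two-sided tests. P-values were adjusted by Benjamini-Hochberg across the 19418 clusters and called at FDR 0.1, following the study's methods. P-values set the difference of the groups against the spread between pools of 4 animals, not that between single animals. The procedure was run on simulated data with equal spread in the groups and changes in few clusters. That setting is simpler than these data, so it does not bear on the calls here. The genes, lists and pairs were chosen with earlier results of these data known. Values per array are given for the 14 called genes with the largest change, for pairs with unlike calls and for Kif5a, Dync1h1 and Dctn1, and of the other transport lists up to 4 genes with the smallest adjusted p are named, and values of Kif1c, Dynlrb1, Isl1, Prph and Tubb3 were added after they were seen. Alternatives were 3 further normalisations, a filter at the 25th percentile of cluster means, a trended robust variance, array weights, 1 cluster per gene, a replicate block and leaving out each array.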

Additional observations from a re-analysis of the deposited data

How the results depend on the processing

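Of the 22 transport genes called, 11 (Kif3a, Kif21a, Klc2, Dync1i1, Dync1i2, Dync1li1, Dynlt3, Dynll2, Dctn5, Dctn6 and Myo5a) kept their call under all 14 alternatives, and 0 of the 22 changed sign under any. The transport genes called lower numbered 11 to 21 and those called higher 0 to 3 when 1 array was left out, with a median log2 fold change of -0.29 to -0.20. The lowest counts came without naive replicate 1 (12 lower) and naive replicate 2 (11 lower). Quantile normalisation and cyclic loess brought the median of the transport genes to -0.17 and -0.13, and both left 2 dynactin genes and 0 Jun N-terminal kinase scaffolds called lower and 0 dynein adaptors called higher. Median centring left 0 transport genes called higher (0 kinesin motors, 0 dynein subunits and 0 dynein adaptors), called 2 dynein adaptors lower, and gave 1869 rises over all clusters against 3403 falls, compared with 3367 and 2865 without it. Array weights also called 2 dynein adaptors lower. Median centring lowered every log2 fold change by the same amount, since it subtracts 1 value per array. What else contributed to the differences between alternatives was not tested. With 1 array left out, rises over all clusters numbered 1643 to 3851 and falls 1856 to 3226. By role, kinesin motors called higher numbered 0 to 1 and lower 2 to 4, dynein subunits called higher 0 to 1, dynactin subunits called lower 2 to 4, dynein adaptors called higher 0 to 1 and lower 0 to 2, and Jun N-terminal kinase scaffolds called lower 0 to 2. Differences within pairs kept their value to within the spread of the replicates after quantile normalisation and after cyclic loess. Median centring subtracts 1 value per array and cannot change them, so it is no check of the pairs. With 1 array left out the shift of Dync1i1 against Dync1i2 ran from -1.11 to -0.70, that of Dynlt1 against Dynlt3 from 1.09 to 1.52, and that of Trak1 against Trak2 from -0.016 to 0.20.

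Replicate numbers are shared by the groups in the labels, but same-numbered arrays did not deviate together (r = -0.075, -0.15 and 0.054). With the replicate number as a block, 17 of 22 calls were kept and those of Kif1c, Kif3c, Dynlrb1, Dctn4 and Nde1 were lost (adjusted p = 0.11, 0.133, 0.116, 0.141 and 0.101), so that 1 transport gene was called higher (0 kinesin motors and 0 dynein adaptors) and 16 lower.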

Other observations

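Of 15 listed mitotic kinesins 10 were measured, and 8 were higher and 0 lower in SNT (median log2 fold change 0.46). Among all genes 19.9% were higher and 18.3% lower. Kif22, a motor of mitotic chromosomes, stood at 6.09, 6.66 and 6.42 on the SNT arrays, against 5.22, 5.43 and 5.46 on the naive arrays (1.02 ± 0.16, adjusted p = 0.00775). Kif20a, which acts in the last step of cell division, stood at 5.70, 6.10 and 5.85 on the SNT arrays, against 4.96, 5.05 and 5.23 on the naive arrays (0.80 ± 0.13, adjusted p = 0.00856). Kif2c (0.59 ± 0.14, adjusted p = 0.027) and Kifc1 (0.30 ± 0.073, adjusted p = 0.0286) rose as well. Of 9 proliferation genes 8 rose and 0 fell (median 1.04). Mean levels of the mitotic kinesins lay between 3.81 and 6.18, below the median of all clusters, 6.20. No background level was set for the values of either list, and the difference between these lists and the transport kinesins was not tested.

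The dyneins of motile cilia, which drive axonemes and not axonal transport, had 13 measured genes, of which 3 rose and 0 fell (median 0.066). Rises made up 23.1% of this list, near the 19.9% of all genes called higher. Mean levels in the list lay between 3.56 and 5.73, below the median of all clusters, 6.20, and no background level was set. The heavy chain Dnah1 stood at 5.88, 5.96 and 5.89 on the SNT arrays, against 5.38, 5.42 and 5.44 on the naive arrays (0.50 ± 0.071, adjusted p = 0.00688), with Dnah3 (0.48 ± 0.14, adjusted p = 0.0461) and the intermediate chain Dnai2 (0.28 ± 0.094, adjusted p = 0.0766) next. The median of this list lay close to that of all clusters, 0.087.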
